A study of Mus musculus with 2 samples.

Results

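Malat1 and Neat1 are neighbouring nuclear long noncoding RNAs (lncRNAs) on mouse chromosome 19, and they are 2 of the 55414 genes counted in 2 single-nucleus RNA-sequencing libraries. They were selected by symbol, on the observation that their ratios after in situ polyadenylation lay on different sides of that of the median protein-coding gene, so the ratios between the libraries are given as a description and carry no test. Both libraries held nuclei of C2C12, an established mouse myoblast line, captured in droplets with Chromium v3 chemistry that primes on poly(A). All nuclei were fixed in methanol. One library (in situ polyadenylated) came from nuclei incubated with yeast poly(A) polymerase before capture. The other (standard) came from nuclei that skipped this step, with no mock incubation, so the enzyme and the incubation cannot be told apart. The incubation used the RNase inhibitor SUPERase-In. For tissue sections, the paper reports that longer transcripts degraded during the reaction with this inhibitor. RNA length in the nuclei was not measured. Each group was 1 library of 1 cell line, so there was no spread between replicates, and all intervals are 95% intervals of counting error only.

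Malat1 is a mostly unspliced RNA of nuclear speckles. Its 3′ end is not made by cleavage and polyadenylation: RNase P cuts the primary transcript upstream of a tRNA-like small RNA, and the end left behind folds into a triple helix of U-rich and A-rich strands that protects it without a poly(A) tail. A tract of adenosines encoded in the genome at that end can prime oligo(dT). Neat1 is the scaffold of paraspeckles. Its long isoform ends in the same manner, whereas its short isoform, which shares the 5′ end, carries an ordinary poly(A) tail.

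The end sequences are shown first, because the chemistry reads RNAs through a 3′ adenosine stretch. All positions are on GRCm39, minus strand, and sequences were read from the reference genome with GENCODE M39. Capitals in the first pair mark runs of at least 10 nt that both stretches hold in the same order.

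Malat1, chr19:5845948-5846150: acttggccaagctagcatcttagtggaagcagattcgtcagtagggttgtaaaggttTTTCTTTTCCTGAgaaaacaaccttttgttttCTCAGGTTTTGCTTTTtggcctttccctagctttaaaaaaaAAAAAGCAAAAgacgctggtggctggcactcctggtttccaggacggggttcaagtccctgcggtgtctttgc

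Neat1, chr19:5874736-5874885: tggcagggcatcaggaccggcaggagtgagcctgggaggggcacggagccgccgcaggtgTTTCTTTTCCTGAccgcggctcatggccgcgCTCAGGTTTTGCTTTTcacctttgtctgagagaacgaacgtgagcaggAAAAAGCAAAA

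The pair shared 3 runs, of 13, 16 and 11 nt. The first 2 are U-rich in the RNA and the last is A-rich. TTTCTTTTCCTGA occurred in the longest transcript of 4 of 32571 annotated lncRNA genes and 17 of 21714 protein-coding genes, searched on the transcript strand. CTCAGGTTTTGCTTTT occurred in 2 lncRNAs and 0 protein-coding genes, and AAAAAGCAAAA in 104 and 245. Malat1 and Neat1 were the 2 lncRNAs that held all 3 runs, and 0 protein-coding genes did. The long Neat1 transcript (22397 nt, chr19:5874736-5897132) ends on the last base of the A-rich run. The longest annotated Malat1 transcript (7886 nt, chr19:5845717-5853602) runs on for 293 nt past it, so that the annotated end of Malat1 lies beyond the stretch shown.

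What follows the A-rich run was compared too, since it is the region that RNase P releases. Directly after the long Neat1 transcript, with 0 nt between, the annotation lists a small RNA of 56 nt, ENSMUSG00002074969. It held 2 runs of at least 8 nt in common, in capitals, with the bases after the A-rich run of Malat1.

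ENSMUSG00002074969, chr19:5874680-5874735: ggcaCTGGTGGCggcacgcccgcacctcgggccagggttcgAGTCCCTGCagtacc

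Malat1, chr19:5845948-5846009: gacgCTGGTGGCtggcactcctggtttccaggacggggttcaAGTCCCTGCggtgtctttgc

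ENSMUSG00002074969 had 0 UMIs in the nuclei of both libraries in the main matrix, which allows at most 3. In the matrix aligned to the genome it had 2 UMIs after in situ polyadenylation and 0 without it. The matching bases of Malat1 lie inside its annotated transcript, so any such reads would be counted as Malat1.

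An A-rich tract was defined as overlapping 15-nt windows with at least 12 A. Malat1 held 1, of 23 nt with 17 A and a longest run of 12 A (chr19:5846008-5846030), which is the A-rich strand shown above and lies 291 nt before the annotated end. The long Neat1 transcript held 2. The longer, of 41 nt with 32 A and no run over 6 A, lay 9389 nt before its end, and the other, of 15 nt, lay 22236 nt before it. The longest Malat1 transcript had the polyadenylation signal AATAAA 17 nt before its annotated end, past the stretch shown. In the long Neat1 transcript the last such signal lay 2071 nt before the end. The short Neat1 transcript (3180 nt, chr19:5892327-5895506) held 0 tracts. It had AATAAA, in capitals, 22 nt before its end, as the last 60 nt show.

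Neat1, end of the short transcript, chr19:5892327-5892386: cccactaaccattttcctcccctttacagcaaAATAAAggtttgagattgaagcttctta

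Neat1, longer A-rich tract in capitals, chr19:5884105-5884185: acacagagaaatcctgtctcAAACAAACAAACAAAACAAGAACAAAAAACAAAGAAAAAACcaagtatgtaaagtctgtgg

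Such tracts are common: 28.2% of lncRNA and 46.4% of protein-coding genes held at least 1 in their longest transcript. The priming sites themselves were not measured, since the files give counts per gene and no read positions. Most of both genes is unique sequence: 2.08% of the 31-nt words of Malat1 and 2.01% of those of Neat1 also occur in another annotated gene.

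**Figure D1:**
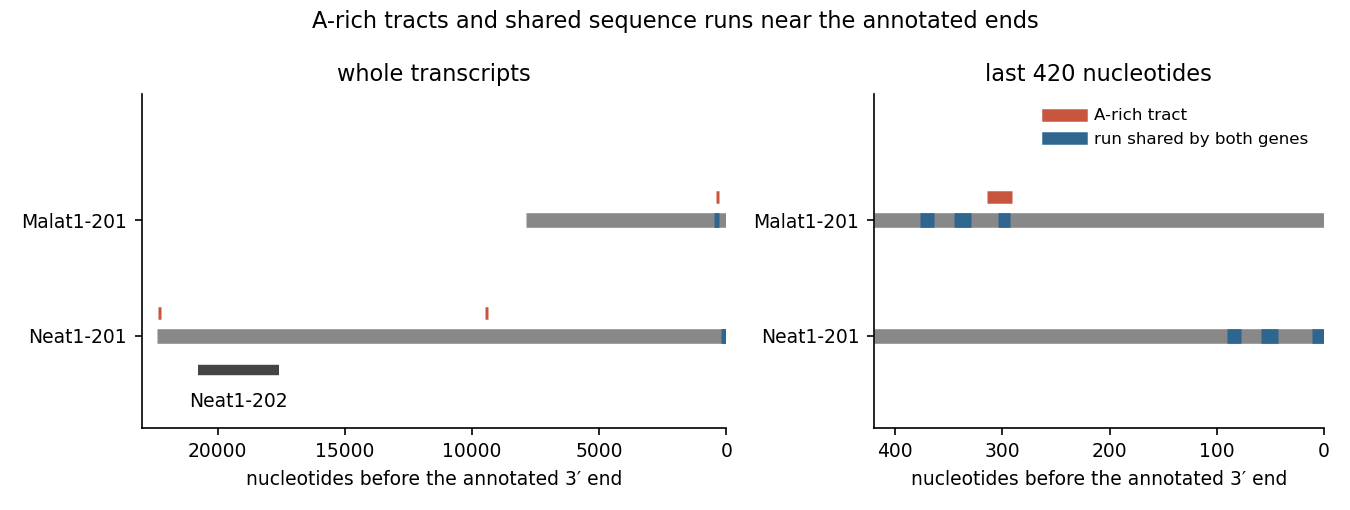
Positions of A-rich tracts (red) and of the 3 sequence runs shared by both genes (blue) along the longest transcript of each gene, as nucleotides before the annotated 3′ end, with the short Neat1 isoform in dark grey. The shared runs end 293 nt before the annotated end of Malat1 and 0 nt before that of Neat1, and the tract of Malat1 overlaps its last run.

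Nuclei were barcodes with more than 750 UMIs (unique molecular identifiers, each counting 1 captured molecule) and under 5% mitochondrial UMIs. The filter left 1335 in situ polyadenylated nuclei with a median of 1088 UMIs and 1123 standard nuclei with a median of 996. The libraries held 6761140 and 10593453 UMIs over all barcodes. Ribosomal RNA took 48.3% of the UMIs of in situ polyadenylated nuclei and 29.3% of those of standard nuclei, and the log2 ratio between the libraries was -1.19 for the median protein-coding gene, so levels are given both as a share of UMIs and relative to that gene (n = 2114 protein-coding genes). The myoblast genes Vim (922 and 1314 UMIs) and Des (360 and 636) were well covered, and the regulators Myod1, Myf5 and Myog had 2 to 15 UMIs a library. Of 8 markers of other cell types 5 had 0 UMIs in both libraries and the highest was Pecam1 (10 and 35). Pecam1 shares 49 of its 31-nt words with Malat1, and 2374 genes share at least 1. In the matrix aligned to the genome, Pecam1 had 70 and 53 UMIs. Of those 5 markers, Rbfox3 had 105 and 43 there and the rest 1 to 9.

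Malat1 was far lower in the in situ polyadenylated nuclei than in the standard nuclei. It had 25803 UMIs, or 1.31% (1.29 to 1.32), against 156729 UMIs, or 11.3% (11.3 to 11.4), an 8.67-fold lower share. The log2 ratio was -3.12 (-3.14 to -3.10), and relative to the median protein-coding gene it was -1.92 (-1.94 to -1.90). Malat1 was the second most abundant gene of the standard nuclei and the fifth of the in situ polyadenylated nuclei.

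Neat1 had nearly the same share of UMIs in both libraries. It had 6082 UMIs, or 0.308% (0.3004 to 0.316), after in situ polyadenylation and 4236 UMIs, or 0.306% (0.297 to 0.316), without it, which is a log2 ratio of 0.01 (-0.05 to 0.07). Since the median protein-coding gene had a lower share after in situ polyadenylation, Neat1 stood 2.30-fold above it, a relative log2 ratio of 1.201 (1.14 to 1.26). It was the sixth most abundant gene of both libraries. The 2 lncRNAs thus lay on opposite sides of the median protein-coding gene. By share of UMIs Malat1 was lower, and the interval of Neat1 included 0.

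Of the 5275 genes with at least 50 UMIs, 2.92% lay at least 2-fold above the median protein-coding gene and 6.41% at least 2-fold below it. Neat1 was in the first set and Malat1 in the second, and both positions follow from how they were selected. Malat1 had the 26th lowest ratio of the 5275 genes and the fifth lowest of 81 lncRNAs. Neat1 was higher than 97.8% of genes and held place 73 of the 81 lncRNAs from the lowest. The lncRNAs as a class leaned low, with a median relative log2 ratio of -0.42 against -0.15 for all genes, 10 at least 2-fold above and 21 at least 2-fold below, but under STAR (next paragraph) the lean was the other way, with a median of 0.09 over 533 lncRNAs against 0.02 for all genes, 159 above and 44 below.

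The matrix aligned to the genome with STAR counted the same nuclei (1328 and 1123 of them) at greater depth and gave the same sides. Malat1 had 69110 UMIs against 498891, with a relative log2 ratio of -1.82 (-1.83 to -1.81), and Neat1 had 35791 against 23558, with one of 1.64 (1.61 to 1.66). By share of UMIs the log2 ratio of Malat1 was -3.74, and Neat1, at 0.310% and 0.378%, lay 1.22-fold lower in the in situ polyadenylated nuclei rather than level. There the log2 ratio of the median protein-coding gene was -1.92, 10.3% of 11253 genes lay at least 2-fold above it and 2.15% at least 2-fold below it. The place of Malat1 was therefore more extreme under STAR, the 19th lowest of all genes, and that of Neat1 less so, above 93.8% of genes.

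**Figure D2:**
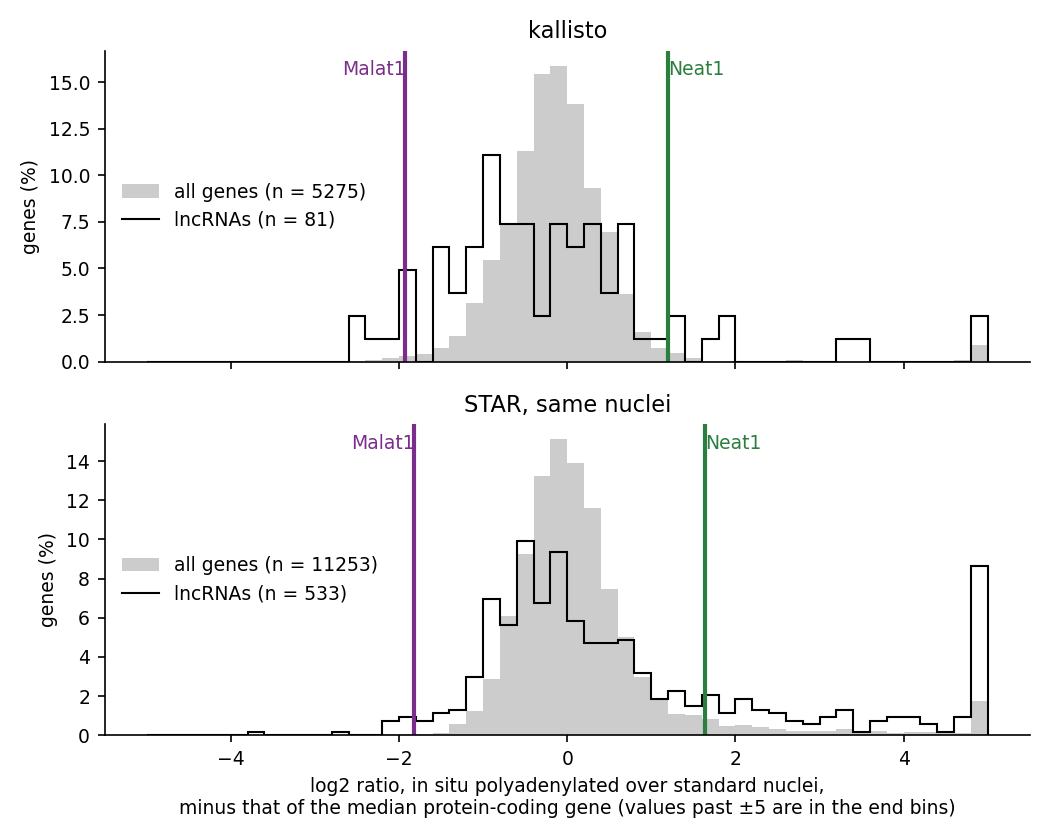
Distribution over genes of the log2 ratio of UMI shares, in situ polyadenylated over standard nuclei, minus that of the median protein-coding gene, for kallisto (top, 5275 genes) and STAR (bottom, 11253 genes). Grey bars are all genes and the black outline lncRNAs, each as a percent of its own number, and the vertical lines mark Malat1 at -1.92 and -1.82 and Neat1 at 1.201 and 1.64.

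The 2 matrices did not scale the 2 genes alike. STAR counted 2.68 times as many Malat1 UMIs as kallisto in the in situ polyadenylated nuclei and 3.18 times as many in the standard nuclei. For Neat1 the figures were 5.89 and 5.56, above those of Malat1 in both libraries. Protein-coding genes had medians of 3.87 and 4.65, lncRNAs 3.96 (n = 35) and 3.56 (n = 63), and protein-coding genes with a single annotated exon 1.06 (n = 41) and 1.79 (n = 21). The sources used here do not say whether the STAR counts include reads in introns, and the cause of the gap was not tested.

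Per length, both lncRNAs stood well above the median protein-coding gene, taken over those that reach 50 UMIs on both sides. In CPM (UMIs scaled to a common library total) per kb of exon, Malat1 was at 1657 (1637 to 1678) in the in situ polyadenylated nuclei, 270-fold the median protein-coding gene, and at 14372.5 (14305.5 to 14439.6) in the standard nuclei, 1030-fold the median. In the standard nuclei 0 of 2114 protein-coding genes reached it and in the in situ polyadenylated nuclei 1 did. Neat1 was at 138 (134 to 141) and 137 (133 to 141), 22.4-fold and 9.80-fold the median, with 10 and 27 protein-coding genes at or above it. The STAR folds are not on the same footing, since they were taken per kb of the whole gene, introns included. There, with 7746 protein-coding genes that reach 50 UMIs, Malat1 was 1973-fold and 6840-fold the median and Neat1 360-fold and 114-fold. How far the matrix and the length each account for the gap to kallisto was not tested. The length used was that of the long isoform, and which isoform the UMIs came from was not measured.

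Counted against each other within a library, where total depth cancels, there were 23.6 Neat1 UMIs (22.9 to 24.2) for every 100 of Malat1 among in situ polyadenylated nuclei and 2.703 (2.62 to 2.79) among standard nuclei. Under STAR there were 51.8 and 4.72. Malat1 made up 53.5% of all lncRNA UMIs after in situ polyadenylation and 86.5% in standard nuclei, and Neat1 12.6% and 2.34%. Under STAR these shares were 23.5% and 74.2% for Malat1 and 12.2% and 3.50% for Neat1.

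The difference in Malat1 was seen in most nuclei. Its share per nucleus had a median of 0.626% (lowest 0, quartiles 0.328 and 1.26, highest 22.9) in the in situ polyadenylated nuclei and 10.1% (lowest 1.97, quartiles 7.60 and 13.4, highest 45.5) in the standard nuclei. In UMIs the medians were 8 and 104. Of the in situ polyadenylated nuclei, 1116 of 1335 (83.6%) lay below the lowest standard nucleus and 1.35% above the standard median. The 2 distributions met in their tails, and 34 in situ polyadenylated nuclei had no Malat1 UMI while the standard nucleus with the fewest had an estimated 16.7. Under STAR, 0 of 1328 in situ polyadenylated nuclei lacked a Malat1 UMI, and the fewest were 1 there and 55 in the standard nuclei.

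The in situ polyadenylated nuclei also differed more among themselves. The SD of the Malat1 share was 1.57 times its mean there and 0.483 times its mean without the reaction. Against the variance that counting at each nucleus's depth gives, the variance of Malat1 UMIs was 47.5 times as large in the in situ polyadenylated nuclei and 37.0 times in the standard nuclei. Neat1 had ratios of 4.69 and 2.99 on the same measure.

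For Neat1 the per-nucleus distributions in the kallisto matrix lay almost on top of each other. The share had a median of 0.234% (lowest 0, quartiles 0.121 and 0.388, highest 6.196) in the in situ polyadenylated nuclei and 0.225% (lowest 0, quartiles 0.112 and 0.383, highest 2.75) in the standard nuclei, with medians of 3 and 2 UMIs a nucleus. No Neat1 UMI was seen in 129 of 1335 and 147 of 1123 nuclei. With rRNA, miRNA-class and mitochondrial UMIs left out of the total, the medians moved apart to 0.733% and 0.335%, and 80.3% of in situ polyadenylated nuclei lay above the standard median, compared with 52.5% by share of all UMIs. On that total Malat1 had medians of 1.98% and 14.99%, and 65.2% of in situ polyadenylated nuclei were below the lowest standard nucleus. Under STAR over the same nuclei, by share of all UMIs, Neat1 was lower after in situ polyadenylation. Its median was 0.270% (quartiles 0.189 and 0.375) there and 0.338% (quartiles 0.254 and 0.440) in the standard nuclei.

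At an equal 750 UMIs per nucleus, Malat1 had a UMI in 94.5% (93.1 to 95.6) of 1335 in situ polyadenylated nuclei and 100% (99.7 to 100) of 1120 standard nuclei, with 0 and 3 left out as too shallow. Neat1 had one in 81.3% (79.1 to 83.3) and 80.4% (77.9 to 82.6). Without thinning these were 97.5% and 100% for Malat1, and 90.3% and 86.9% for Neat1. Under STAR over the same nuclei, also without thinning, they were 100% and 100% for Malat1, and 99.8% and 100% for Neat1. All nuclei came from 1 cell line, so no cell type that lacks these genes gives a background for such shares.

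**Figure D3:**
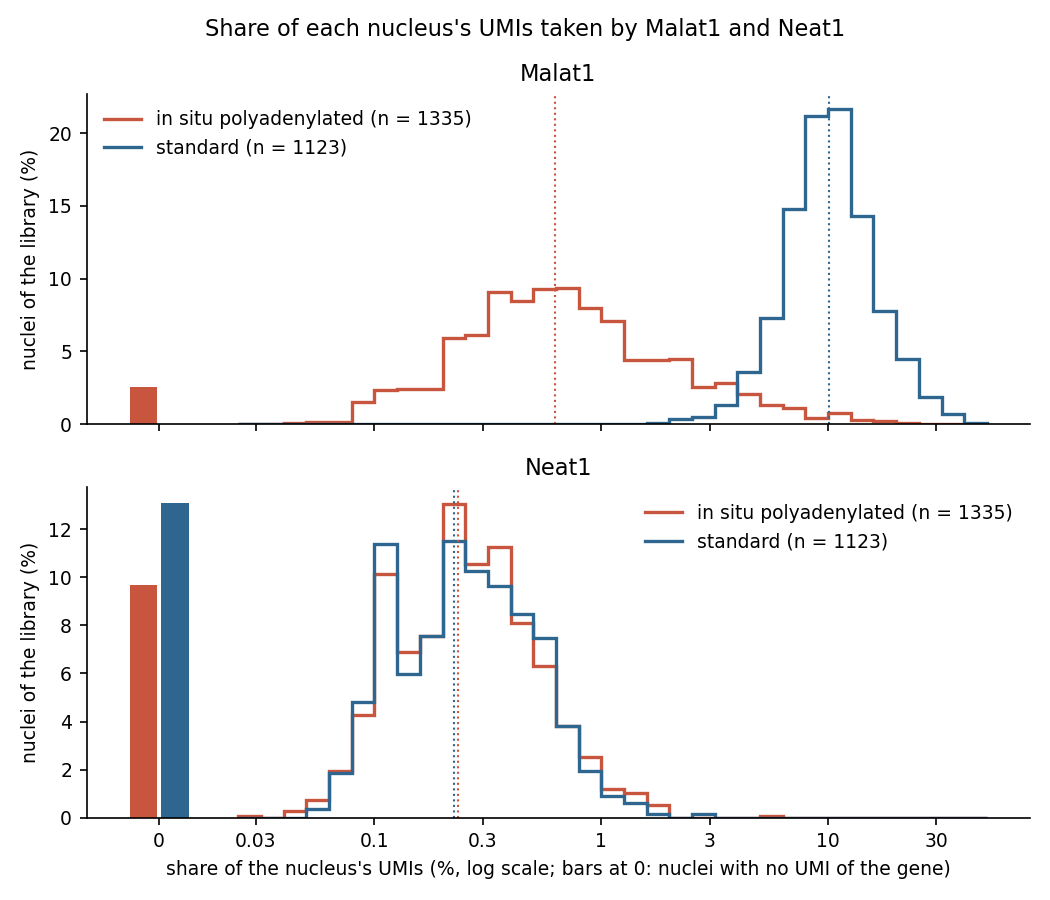
Share of each nucleus's kallisto UMIs taken by Malat1 (top) and Neat1 (bottom), on a log axis, as a percent of the nuclei of each library in 0.1-wide log10 bins. Bars at 0 are nuclei with no UMI of the gene and dotted lines are medians, which lie at 0.626% and 10.1% for Malat1 and at 0.234% and 0.225% for Neat1.

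From nucleus to nucleus the shares of the 2 lncRNAs were weakly related. Spearman's rho between them was 0.13 over the in situ polyadenylated nuclei and 0.17 over the standard nuclei, and -0.05 and 0.06 without rRNA, miRNA-class and mitochondrial UMIs. Nuclei of a library share the library and the total is common to both shares, so these are descriptions of sparse counts.

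The paper describes the gene ENSMUSG00002075551 as incompletely annotated. Nuclei of the in situ polyadenylated library that held this gene had a lower Malat1 share than those that did not. The 507 nuclei with a UMI of this gene had a median Malat1 share of 0.388% (quartiles 0.228 and 0.725), and the 828 without one had 0.843% (0.457 and 1.70). For Neat1 the medians were 0.204% and 0.251%. UMIs of ENSMUSG00002075551 are part of these totals. Without them the Malat1 medians were closer, at 0.588% and 0.843%, and those of Neat1 turned in direction, at 0.298% and 0.251%. Among the nuclei without it, Malat1 had a log2 ratio to standard nuclei of -2.72 (-2.75 to -2.70) and Neat1 one of 0.22 (0.15 to 0.28). In the standard library 1122 of 1123 nuclei had no UMI of this gene. The part it has in the level of either lncRNA was not tested.

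Barcodes with 1 to 100 UMIs (229964 in situ polyadenylated and 226358 standard), of which 136806 and 148803 had a single UMI, are called the background of each library here. What they hold was not tested. In the standard library both lncRNAs were richer in nuclei than in this background. Malat1 made up 8.98% (8.94 to 9.01) of UMIs in this background and 11.3% in nuclei, giving a log2 ratio of 0.34 (0.33 to 0.35), and Neat1 was at 0.244% (0.238 to 0.251) and 0.306%, a log2 ratio of 0.33 (0.27 to 0.38). Relative to the median protein-coding gene these were 0.40 and 0.39, under the 2-fold mark that 1.54% of 7742 genes passed upward and 5.27% downward.

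In the in situ polyadenylated library both were poorer in nuclei than in the background by share of all UMIs, though Neat1 was at a log2 ratio of 0.0696 (0.020 to 0.119), the other direction, without rRNA, miRNA-class and mitochondrial UMIs. Malat1 made up 2.09% (2.08 to 2.11) of UMIs in the background and 1.31% in nuclei, giving a log2 ratio of -0.68 (-0.70 to -0.66), and Neat1 was at 0.356% (0.348 to 0.364) and 0.308%, a log2 ratio of -0.21 (-0.26 to -0.16). Relative to the median protein-coding gene these were -0.59 and -0.12, again within 2-fold, where 1.23% of 4801 genes lay at least 2-fold above and 9.71% at least 2-fold below. Malat1 exceeded 24.0% of those genes by this ratio and Neat1 56.1%.

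Between the backgrounds of the 2 libraries, the lncRNAs kept their order. Malat1 was 4.28-fold lower after in situ polyadenylation, a log2 ratio of -2.10 (-2.11 to -2.08), and relative to the median protein-coding gene it was at -0.99 (-1.01 to -0.98). Neat1 was higher, with a log2 ratio of 0.54 (0.49 to 0.59) and a relative one of 1.65 (1.60 to 1.70). Of 7633 genes, 5.54% were at least 2-fold above the median protein-coding gene in this comparison, Neat1 among them, and 5.33% at least 2-fold below. There were 17.0 Neat1 UMIs (16.6 to 17.4) per 100 of Malat1 in the in situ polyadenylated background, below its nuclei, and 2.72 (2.65 to 2.79) in the standard background, where the value for nuclei was 2.703.

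Finer bands showed that barcodes of 1 to 100 UMIs were not uniform. In the in situ polyadenylated library the share of Malat1 was 1.27% in barcodes with 1 UMI, reached 2.32% (2.28 to 2.36) at 26 to 50 UMIs, dropped to 1.13% (1.07 to 1.19) at 51 to 100 and 0.713% (0.690 to 0.736) at 101 to 200, and climbed to 1.09% at 501 to 750 and 1.31% in nuclei. The standard library also fell from 26 to 50 to 51 to 100 UMIs, but rose directly after and was highest in nuclei: 7.995% at 1 UMI, 10.2% (10.2 to 10.3) at 26 to 50, 6.52% (6.46 to 6.58) at 51 to 100, and from 7.90% at 101 to 200 up to 11.3% in nuclei. Thus nuclei of the in situ polyadenylated library had less Malat1 than barcodes of 11 to 50 UMIs, a log2 ratio of -0.78 (-0.80 to -0.76), but more than those of 51 to 100, a log2 ratio of 0.21 (0.13 to 0.29).

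Neat1 had no such peak at 26 to 50 UMIs. In the standard library it was at 0.298% in barcodes with 1 UMI, lowest at 0.212% (0.202 to 0.223) for 51 to 100 UMIs, at 0.229% (0.220 to 0.239) just below the nuclei and at 0.306% in them. In the in situ polyadenylated library it was highest at 0.457% (0.422 to 0.494) with 1 UMI, at 0.411% (0.377 to 0.448) for 51 to 100 UMIs, and at 0.315% from 301 to 500 UMIs. The 2 libraries differed most in Neat1 share from 51 to 200 UMIs and met in the nuclei. They were also close at 2 to 10 UMIs, at 0.304% (0.254 to 0.362) after in situ polyadenylation and 0.289% (0.230 to 0.357) without it.

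**Figure D4:**
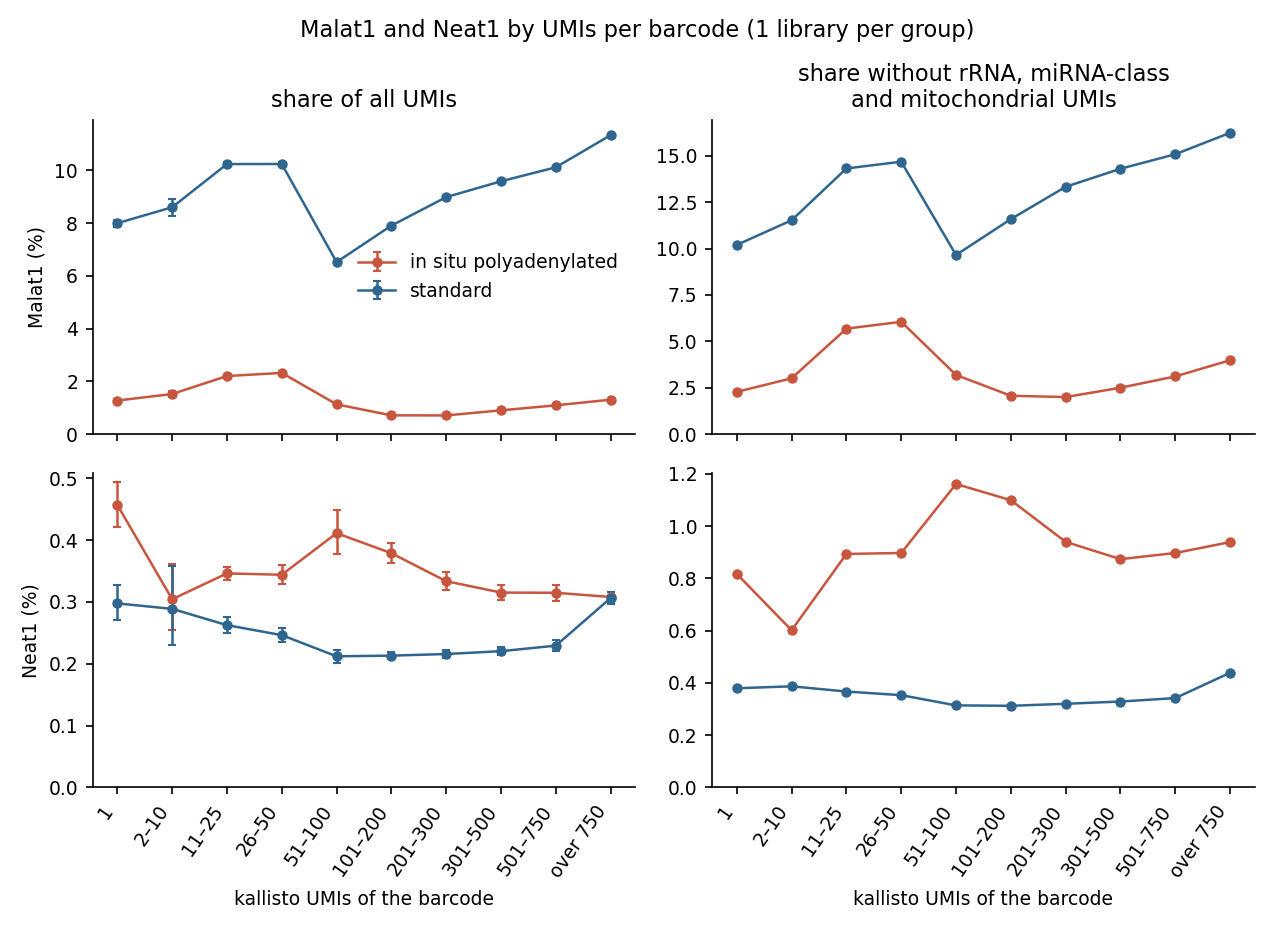
Malat1 (top) and Neat1 (bottom) as a percent of all UMIs (left) and of UMIs without rRNA, miRNA-class and mitochondrial genes (right), summed over barcodes in bands of UMIs per barcode. Bars on the left are exact 95% intervals of counting error; Malat1 falls from 26–50 to 51–100 UMIs in both libraries, and Neat1 meets at 0.308% and 0.306% in nuclei.

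The libraries listed 50944 barcodes in common, of which 0 were nuclei in both. In the in situ polyadenylated library, barcodes with 1 to 10 UMIs that had over 500 UMIs in the standard library held 7.005% Malat1 (5.65 to 8.57, 87 UMIs in 945 barcodes), compared with 1.18% (1.13 to 1.24) for those not listed there. In the reverse direction the standard barcodes with 1 to 10 UMIs had 4.74% (3.53 to 6.22) where the in situ polyadenylated library had over 500, and 8.24% (8.10 to 8.37) where it listed none. From 11 to 100 UMIs no such gap was seen: in the in situ polyadenylated library the shares were 2.50% (1.78 to 3.42) and 2.17% (2.15 to 2.19). With shared barcodes left out, the log2 ratios of nuclei over low-UMI barcodes were -0.67 and 0.33 for Malat1 and -0.21 and 0.32 for Neat1.

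Patterns were compared over 4 profiles (nuclei and low-UMI barcodes of each library), among genes with at least 50 UMIs in each. The nearest genes were protein-coding, but the share of that class among the genes compared was not counted. For Malat1 they were Epha5, an ephrin receptor, Nopchap1 and Gm4631, at root-mean-square differences of 0.249, 0.278 and 0.280 in centred log2 CPM, where the median over 2085 genes was 0.787. None of the 3 shares a 31-nt word with Malat1. For Neat1 they were Zfp469, Marcks and the mitochondrial gene mt-Nd4, at 0.069, 0.122 and 0.125, with a median of 0.759. These genes have 56 to 848 UMIs per profile, so their own counting error is part of the difference.

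Among the genes within 100 kb of the pair that are reported here, none with at least 50 UMIs apart from the 2 lncRNAs lay 2-fold from the median protein-coding gene in the kallisto matrix. Ehbp1l1, Ltbp3, Dpf2 and Frmd8, which flank the lncRNAs, had relative log2 ratios of 0.06, 0.44, -0.69 and -0.13, from counts of 16 to 402 after in situ polyadenylation, and Frmd8 had under 50 in both libraries together. Gm37376, annotated on the opposite strand within Malat1, had 69 UMIs against 194, which put it at -0.81 (-1.23 to -0.41), and STAR, with 71 against 300, put it past 2-fold at -1.04. Kallisto counts were made with the strand set, so they keep the strands apart as far as that setting goes.

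The genes of the protein partners of both lncRNAs were read next, from named lists. Of 15 paraspeckle protein genes 12 had enough UMIs, with a median relative log2 ratio of -0.49 (all 5275 genes: -0.15), 0 at least 2-fold above and 2 below, where the shares over all genes were 2.92% and 6.41%. The latter were Cpsf6 (15 UMIs against 60, -1.32) and Cpsf7 (51 against 174, -1.09), subunits of the cleavage factor that directs Neat1 isoform choice, and STAR put them at -0.10 for both. Sfpq, a core paraspeckle protein, was at 0.38 and its partner Nono at -0.59, but at 0.18 under STAR. By STAR the list's median was -0.04. All 13 nuclear speckle genes were covered, with a median of 0.02 and 0 past 2-fold in either direction. Srrm2, a speckle scaffold, was at 0.42 and Son, the other, at -0.15, with STAR at 0.59 and 0.15.

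Of 14 genes for RNase P, RNase Z and triple-helix binding, 4 had enough UMIs and their median was 0.27. Of these, 1 lay at least 2-fold above and 1 below, where the shares over all genes were 2.92% and 6.41%. Under STAR 9 were covered, with a median of -0.09, 2 at least 2-fold above and 0 below (all genes: 10.3% and 2.15%). The second above was Rpp21, a protein subunit of RNase P, at 2.73 (220 UMIs against 68). Rpph1, the RNA subunit of RNase P and itself without a poly(A) tail, had 850 UMIs against 1 (relative log2 ratio 10.41, interval 7.93 to 15.72). Mettl16, which binds the Malat1 triple helix, had 12 UMIs against 42, which put it at -1.13 (-2.19 to -0.18), with STAR at -0.39. Pop1, another protein subunit of RNase P, was at 0.14 and Elac2, the RNase Z that trims tRNA 3′ ends, at 0.39, with STAR at 0.45 and 0.71.

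Among 26 other named lncRNAs, 16 were covered and the median was -0.40, so the ratio of Malat1 was below and that of Neat1 above it. Kcnq1ot1, the antisense RNA of an imprinted domain, was near Malat1 at -1.85 (57 UMIs against 330), and Xist, the X-inactivation RNA, was at -1.10 (585 against 2004), the 2 at least 2-fold below. STAR put them at -1.12 and -0.40, so Kcnq1ot1 lay farther from Malat1 there and Xist within 2-fold. Snhg1, a snoRNA host, was the 1 at least 2-fold above, at 1.40 (212 against 129), and STAR placed it at -0.10. Over all genes, 2.92% lay at least 2-fold above and 6.41% below with kallisto, and 10.3% and 2.15% under STAR. Of the named lncRNAs 22 were covered under STAR, with a median of -0.13, 3 at least 2-fold above and 2 below. The 3 were Meg3 (68 UMIs against 3), Rian (92 against 2) and Mir22hg (94 against 2), of which the first 2 had under 50 UMIs in the kallisto matrix and Mir22hg was at -0.69 there. H19 and Tug1 were at 0.04 and -0.38, with STAR at 0.55 and -0.54.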

How the data were processed

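The 2 libraries of C2C12 nuclei were compared with each other, 1 per group as named in the labels. Per the submitters' processing notes and the study's methods, the authors trimmed reads with cutadapt 3.4 and quantified them against GRCm39 with GENCODE M28. The deposited kallisto 0.48.0 and bustools 0.41.0 matrices hold estimated counts of UMIs for every barcode, and the deposited STAR 2.7.10a matrices hold UMI counts for a subset of barcodes. Both come without normalization. Strand-aware counting is stated for kallisto.

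Kallisto sums over nuclei, rounded to whole UMIs, were the main measurement, with the study's filter of over 750 UMIs and under 5% mitochondrial UMIs. Doublets were not called. The intervals of log2 ratios of UMI shares are exact and conditional on the sum of both Poisson counts, and shares carry exact (Clopper-Pearson) 95% intervals. PCR duplicates are removed by UMIs, and no interval covers variation between libraries. Ratios across genes used those with at least 50 UMIs in both samples together, and a count of 0 was set to 3. Relative ratios subtract the median over the protein-coding genes that reach 50 UMIs on both sides. With 1 library per group no test was made. Gene classes came from GENCODE M39 (54749 of 55414 genes matched). The ratio and interval were run on simulated independent Poisson counts. The interval assumes that same model, so the run checks the calculation and not whether the model holds for these nuclei. Python 3.11.15, numpy 2.4.6, scipy 1.17.1, pandas 2.3.3 and matplotlib 3.10.9 were used.

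The members, gene lists and alternatives were chosen with earlier results of these data known. Named genes were the 2 lncRNAs, the 3 genes nearest to each in pattern, genes within 100 kb (not all are reported here), and members of 4 lists on which a statement turns. Splits by ENSMUSG00002075551, by bands of 11 to 50 and 51 to 100 UMIs and by shared barcodes were added after seeing the data.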

Additional observations from a re-analysis of the deposited data

Results flagged for a closer look

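The ratio of nuclei over barcodes with 1 to 100 UMIs pointed in opposite directions in the 2 libraries for both lncRNAs. For Malat1 the log2 ratio was -0.68 after in situ polyadenylation and 0.34 without it. For Neat1 it was -0.21 and 0.33. With 1 library per group, the difference between the libraries was not tested. For Malat1 the in situ polyadenylated value has the other sign against barcodes of 51 to 100 UMIs alone, at 0.21. For Neat1 it has the other sign without rRNA, miRNA-class and mitochondrial UMIs, at 0.0696. Together these classes took 67.2% of UMIs in nuclei, 45.3% at 1 to 10 UMIs and 61.6% at 11 to 100. Of them, rRNA went the other way, with 48.3% of nuclear and 55.7% of low-UMI UMIs. So did mitochondrial UMIs, with 0.377% and 0.914%.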

How the results depend on the processing

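No paired analysis was possible because a group held no more than 1 library. All values are log2 ratios, an alternative was read as moved when it left the counting interval of the reported value, and causes were not tested. Against the standard nuclei Malat1 stayed below 0 in all 10 alternatives, at -3.75 with STAR's own filter, -3.74 with STAR over the same nuclei, -3.09 over 1500 UMIs, -3.05 with the barcodes deposited for STAR, -3.16 without the deepest 5% of nuclei, -2.72 without nuclei holding ENSMUSG00002075551 UMIs, -3.15 as a mean over nuclei, -2.03 without rRNA, miRNA-class and mitochondrial UMIs and -1.92 relative to the median protein-coding gene. Neat1 was above 0 in 7 and below 0 in 3 alternatives, in the same order at -0.16, -0.28, -0.34, 0.34, 0.05, 0.22, 0.11, 1.10 and 1.201, and at 0.18 over 500 UMIs. So its side of 0 depends on the matrix, the UMI minimum and the total used.

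For nuclei over the low-UMI background after in situ polyadenylation, Malat1 was at -0.0278 against 1 to 10 UMIs, with an interval (-0.088 to 0.033) that included 0. It was at -0.73 against over 10, -0.78 against 11 to 50 and 0.21 against 51 to 100 (the other sign). Without rRNA, miRNA-class and mitochondrial UMIs it was at -0.40, for nuclei over 1500 UMIs at -0.60 and relative to the median protein-coding gene at -0.59. Neat1 was at -0.45 against 1 to 10 UMIs, -0.42 against 51 to 100, 0.0696 without those UMI classes (the other sign) and -0.12 relative to the median protein-coding gene. In the standard library all 8 alternatives of each stayed above 0, though the Neat1 interval against 1 to 10 UMIs (-0.083 to 0.182) included 0. Those that moved for Malat1 were 0.49 against 1 to 10 UMIs, 0.33 against over 10, 0.15 against 11 to 50, 0.80 against 51 to 100, 0.39 for nuclei over 1500 UMIs and 0.40 relative to the median protein-coding gene. For Neat1 they were 0.0483, 0.53, 0.69 and 0.39 against 1 to 10 UMIs, against 51 to 100, over 1500 UMIs and relative to that median. In the kallisto matrix, depth limits what can be said of Neat1 in single nuclei, at a median of 2 to 3 UMIs each. Under STAR over the same nuclei the medians were 19 after in situ polyadenylation and 15 without it.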
